A study of Mus musculus with 4 samples.

Results

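The 7 genes described here, Sh3bgrl3, Leprot, Lrp11, Mat2b, Bex3, Uhmk1 and Emc2, were listed because their RNA rose in 46C mouse ES cells after knockdown of Atad2, by amounts picked as alike in both knockdown pairs, although the pairs of 4 of the 7 differed by more than those of the median gene. They are 7 of 10144 genes tested, and all 7 passed the filter on low levels. RNA-seq was analysed in 4 libraries of 46C ES cells that carry a knocked-in TAP tag on Atad2 and were grown with LIF on gelatin, so that the tag is common to both conditions. The si-ctrl libraries 1 and 2 come from cells given the scrambled siRNA and the si-Atad2 libraries 1 and 2 from cells given an active siRNA against Atad2. The labels number the libraries of a condition as replicates, whereas the study's figure legend has every RNA sequenced in duplicate and more than a single anti-Atad2 siRNA. Libraries of a condition may thus be repeat sequencing of the same RNA, which siRNA each received is not given, and the p-values measure a spread that may be technical only. The comparison asks how the loss of Atad2 moves the level of each gene. Libraries of the same number, here called pair 1 and pair 2, were quantified together by the authors with Cuffdiff, in a separate run for each pair. Levels are given in FPKM (fragments per length of transcript and total of mapped fragments), summed over the transcript rows of a gene. Changes are given within a pair, as log2 of the si-Atad2 level over the si-ctrl level after adding 1 FPKM to each. Levels of different pairs were scaled in different runs, and distances between libraries of the same condition, also on the log2(FPKM + 1) scale, include that scaling. These ratios chose the genes, and they are given for them as a description, with no test.

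Atad2 encodes an AAA ATPase with a bromodomain that binds acetylated histones. The 7 genes belong to no common pathway. Lrp11, Leprot and Emc2 serve cell membranes. Lrp11 is a membrane protein of the lipoprotein receptor family, Leprot is a small protein of the Golgi and endosomes that limits the leptin receptor at the cell surface, and Emc2 is a subunit, itself on the cytosolic side, of the complex that inserts membrane proteins into the endoplasmic reticulum. Mat2b and Uhmk1 belong to enzymes. Mat2b is the regulatory subunit of the methionine adenosyltransferase that makes S-adenosylmethionine, the methyl donor of the cell, and Uhmk1 is a kinase that acts on splicing factors. Sh3bgrl3 and Bex3 are small proteins of the cytoplasm. The former resembles the glutaredoxins, and the latter is an X-linked adaptor of the neurotrophin receptor Ngfr.

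The genes lie apart from one another on GRCm38. Sh3bgrl3 (chromosome 4, 134127406 to 134128789, minus strand) and Leprot (chromosome 4, 101647718 to 101659364, plus strand) share a chromosome. Lrp11 is on chromosome 10 (7589800 to 7625483, plus strand), Mat2b on chromosome 11 (40679314 to 40695203, minus strand) and Bex3 on chromosome X (136270253 to 136271978, plus strand). Uhmk1 is on chromosome 1 (170193420 to 170215397, minus strand). Emc2 is on chromosome 15 (43477229 to 43527763, plus strand), 14.6 Mb from Atad2.

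The 7 genes were picked for a rise in both pairs, and a shared control of them was not tested. As a description, the 250 bases before their RefSeq start sites (GRCm38.p6) were searched on both strands for common promoter motifs. Such sequences were matched for 6 of the 7 genes, all but Emc2, with a second start for Uhmk1 in whose window none of the motifs was found. The GC box GGGCGG was found in 6 of 6, against 59.5% of 10267 promoters of tested genes and 32.7% of all 32851 promoters. The CCAAT box, searched as CCAAT, was found in 5 of 6, against 35.5% and 33.8%. For Mat2b, the only GC box and the only CCAAT box lie in the part of the window that is annotated as transcribed. That window (40692683 to 40692932) lies within the annotated extent of Mat2b. The ETS motif CCGGAAG was found in 1, Uhmk1, against 13.5% and 6.9%. TATAAA (6.4% and 12.4%), the E-box CACGTG (8.6% and 6.0%) and the CRE core TGACGT (9.8% and 6.5%) were found in 0 of 6. None of these motifs contains another, and a match describes the letters only. The windows of Lrp11, Leprot and Sh3bgrl3 are shown because these genes had the highest lower ratio of a pair, and that of Uhmk1 because it holds the ETS motif. Each is written 5′ to 3′ on the strand of its gene, up to the first base annotated as transcribed, with the matches of any searched motif, on either strand, in capitals.
Lrp11, chr10:7589567-7589799: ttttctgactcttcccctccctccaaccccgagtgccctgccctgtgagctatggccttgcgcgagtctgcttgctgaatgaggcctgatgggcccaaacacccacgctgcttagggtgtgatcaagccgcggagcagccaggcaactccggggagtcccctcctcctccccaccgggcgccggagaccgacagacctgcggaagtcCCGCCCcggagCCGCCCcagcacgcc
Leprot, chr4:101647533-101647717: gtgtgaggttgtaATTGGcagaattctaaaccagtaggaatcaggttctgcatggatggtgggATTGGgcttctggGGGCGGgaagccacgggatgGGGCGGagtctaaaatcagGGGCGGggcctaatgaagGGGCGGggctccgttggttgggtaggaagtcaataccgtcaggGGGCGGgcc
Sh3bgrl3, chr4:134128790-134128983: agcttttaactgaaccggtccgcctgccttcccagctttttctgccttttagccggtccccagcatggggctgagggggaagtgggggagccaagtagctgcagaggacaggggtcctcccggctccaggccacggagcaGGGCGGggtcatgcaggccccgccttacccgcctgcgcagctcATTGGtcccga
Uhmk1, chr1:170215408-170215657: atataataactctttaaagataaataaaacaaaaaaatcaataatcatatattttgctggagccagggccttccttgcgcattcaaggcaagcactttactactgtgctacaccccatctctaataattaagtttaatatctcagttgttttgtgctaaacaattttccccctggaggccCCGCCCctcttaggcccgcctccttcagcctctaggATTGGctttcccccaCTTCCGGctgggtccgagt
Leprot carries 5 GC boxes and 2 CCAAT boxes in the bases shown, Lrp11 2 GC boxes and no CCAAT box, and Sh3bgrl3 and Uhmk1 1 of each. The GC content of the 250 bases ranged from 43.6% (Uhmk1) to 68.4% (Lrp11), around a median of 60% over promoters of tested genes.

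The knockdown itself was present in both pairs. In pair 1 Atad2 went from 34.1 FPKM in si-ctrl to 10.1 FPKM in si-Atad2, and in pair 2 from 36.01 FPKM to 13.0 FPKM, so that 29.6% and 36.2% of the control level were left. Its mean log2 ratio was -1.53 (standard error 0.077, adjusted p = 4.38e-06 by limma). Defining genes of ES cells were high in every library, such as Pou5f1 (701 to 807 FPKM) and Sox2 (190 to 200 FPKM), and 0 of 8 ES cell markers passed the test by limma (3 with an unadjusted p under 0.05), where 2.05% of all 10144 genes passed and 1628 (16%) had an unadjusted p under 0.05. Those 3 markers were lower, with mean log2 ratios of -0.14 (Pou5f1), -0.25 (Nanog) and -0.14 (Dppa5a). Sox2 (0.043) and Tdgf1 (0.088) had positive ratios. Of the markers of other cells, 2 of 7 for fibroblasts, 2 of 6 for endoderm and mesoderm and 3 of 4 for neural cells were high enough to test, and 0 of these 7 passed by limma (1 with an unadjusted p under 0.05). The fibroblast markers summed to 7.18 to 8.51 FPKM per library, with Lum listed at 0 in all 4, the endoderm and mesoderm markers to 3.43 to 4.38 FPKM, and the neural markers to 50.8 to 65.4 FPKM. Most of the neural sum was Tubb3 (44.3 to 58.8 FPKM), while Nes (3.39 to 3.78 FPKM), Pax6 (1.79 to 2.53 FPKM) and Sox1 (0.76 to 0.99 FPKM) were low. The tables hold no counts, but the widths of the authors' intervals put the depths of the 4 libraries within 1.07-fold of one another. The ratios of pair 1 moved with the GC content of the transcript (Spearman correlation -0.29 across 10144 genes), as did the difference between the si-ctrl libraries (-0.55), while those of pair 2 hardly did (0.087).

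**Figure D1:**
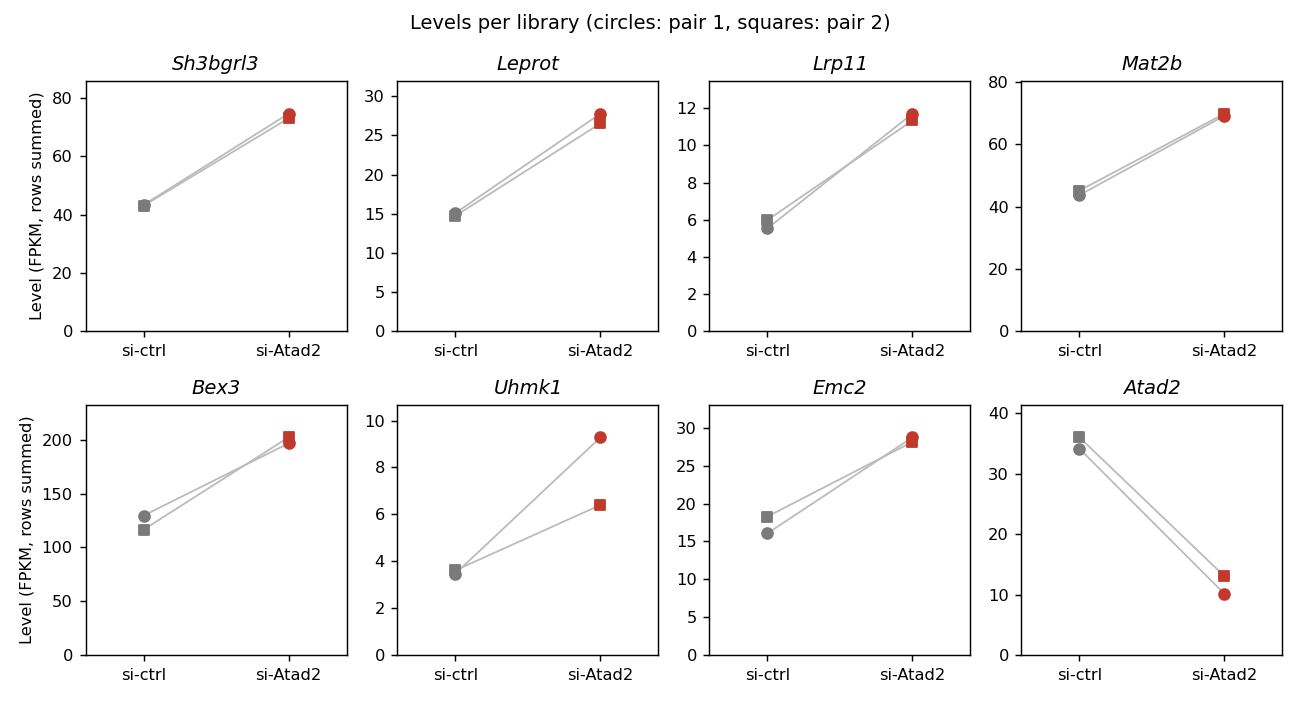
Levels of the 7 genes and of Atad2 in each library, in FPKM summed over transcript rows, with circles for pair 1, squares for pair 2 and a line joining the libraries of a pair. For each of the 7 genes both si-Atad2 libraries lie above both si-ctrl libraries, whereas Atad2 falls from 34.1 and 36.01 FPKM to 10.1 and 13.0 FPKM.

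Among the genes that serve membranes, Lrp11 stood at 5.54 FPKM in si-ctrl 1, 11.7 FPKM in si-Atad2 1, 5.98 FPKM in si-ctrl 2 and, in si-Atad2 2, 11.3 FPKM. Its level was thus 2.12 times the control in pair 1 and 1.896 times in pair 2, with log2 ratios of 0.96 and 0.82. The si-ctrl libraries lay 0.095 apart on the log2 scale, against a median of 0.058 over all genes, and the si-Atad2 libraries 0.042, against 0.082. Its lower ratio, 0.82, was the highest such value of all 10144 genes with a pseudocount of 1 FPKM, but with 5 FPKM it was 0.57, below those of Sh3bgrl3 (0.70), Leprot (0.68), Bex3 (0.58) and Mat2b (0.58).

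Leprot was measured at 15.1 FPKM in si-ctrl 1, 27.8 FPKM in si-Atad2 1, 14.7 FPKM in si-ctrl 2 and, in si-Atad2 2, 26.5 FPKM. The folds were 1.84 and 1.80 and the log2 ratios 0.84 and 0.81, the second highest lower ratio of all genes. The 2 pairs differed by 0.030. Over all genes tested the median of this difference was 0.10, and 4 of the 7 genes exceeded it, Lrp11 (0.14), Bex3 (0.19), Emc2 (0.21) and Uhmk1 (0.52).

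Emc2 went from 16.1 FPKM in si-ctrl 1 to 28.7 FPKM in si-Atad2 1, and from 18.3 FPKM in si-ctrl 2 to 28.1 FPKM in si-Atad2 2. The si-Atad2 levels were nearly the same and the si-ctrl levels were 0.18 apart on the log2 scale, just under the 95th percentile of that difference over all genes (also 0.18). The log2 ratio was therefore 0.80 in pair 1 and 0.60 in pair 2, the lowest single ratio among the 7 genes.

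Of the enzyme genes, Mat2b stood at 43.7 FPKM in si-ctrl 1, 69.1 FPKM in si-Atad2 1, 45.1 FPKM in si-ctrl 2 and, in si-Atad2 2, 69.8 FPKM. It had the smallest mean log2 ratio of the group, with 0.65 in pair 1 and 0.62 in pair 2, or 1.58 and 1.55 times the control. Both pairs again lay within 0.032 of each other.

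Uhmk1 does not share this evenness. It went from 3.47 FPKM in si-ctrl 1 to 9.29 FPKM in si-Atad2 1, but from 3.61 FPKM in si-ctrl 2 to 6.399 FPKM in si-Atad2 2. Its level was 2.67 times the control in pair 1 and 1.77 times in pair 2, with log2 ratios of 1.20 and 0.68. The si-ctrl libraries were alike, and the si-Atad2 libraries differed by 0.48 on the log2 scale, more than the 95th percentile of that difference over all genes (0.29). The pair difference of 0.52 ranked 10025 of 10144 from the smallest, so that Uhmk1 was higher in both pairs but not by similar amounts. Its mean log2 ratio of 0.94 was 1.10 with a pseudocount of 0.1 FPKM and 0.58 with 5 FPKM, where pair 2 gave 0.405, the lowest single ratio of the group. It is also the least expressed of the 7, and its only row, of 2024 bases, ends 5836 bases short of the 3′ end of the annotated gene, so that fragments from that stretch are not part of its value.

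For the small cytoplasmic proteins, Sh3bgrl3 was measured at 43.3 FPKM in si-ctrl 1, 74.7 FPKM in si-Atad2 1, 43.1 FPKM in si-ctrl 2 and, in si-Atad2 2, 73.1 FPKM. It was the most even of the group, with folds of 1.72 and 1.70 and log2 ratios of 0.77 and 0.75, only 0.022 apart. The last 188 bases of Sh3bgrl3 overlap Ubxn11 on the other strand, and use of the strand is not stated in the sources used here. Ubxn11 itself was listed at 2.05 to 2.54 FPKM, with log2 ratios of -0.21 and 0.079.

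Bex3, the highest expressed of the 7 genes, went from 129 FPKM in si-ctrl 1 to 197 FPKM in si-Atad2 1, and from 116 FPKM in si-ctrl 2 to 202 FPKM in si-Atad2 2. Both si-Atad2 levels lay above both si-ctrl levels. Unlike the other 6, its ratio was higher in pair 2 (0.79) than in pair 1 (0.60), and its si-ctrl libraries differed by 0.15 on the log2 scale.

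The median log2 ratio of the 7 genes was 0.80 in pair 1 and 0.75 in pair 2, while that of all genes tested was 0.0010 and -0.016. Over all genes, 2.05% passed the test by limma in either direction, 1.62% with a rise and 0.434% with a fall, and the count behind this share, 208, ran from 11 without si-ctrl 1 or without si-ctrl 2 to 725 without si-Atad2 1 and 1909 without si-Atad2 2. In 22.3% of genes both si-Atad2 levels lay above both si-ctrl levels, as they do in the 7 genes, and in 26.8% below. Nothing is read from these shares, since the genes were picked on these values. Only 13 genes had both ratios at or above 0.60, the lowest ratio of the group, and they include all 7. The other 6 were Iars, Rfc3, Uqcrfs1, Ddx3y, Tmem179b and Slc35a4, where Tmem179b is listed at 0 FPKM in si-ctrl 2. Sox3 lay just below them, with 0.59 and 0.60. In the opposite direction, Atad2 was the 1 gene among those tested that fell at least as far in both pairs. With a pseudocount of 5 FPKM 4 genes reached the same value of 0.60 in both pairs, of the 7 only Leprot and Sh3bgrl3, and with TPM 35 did, all 7 included.

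**Figure D2:**
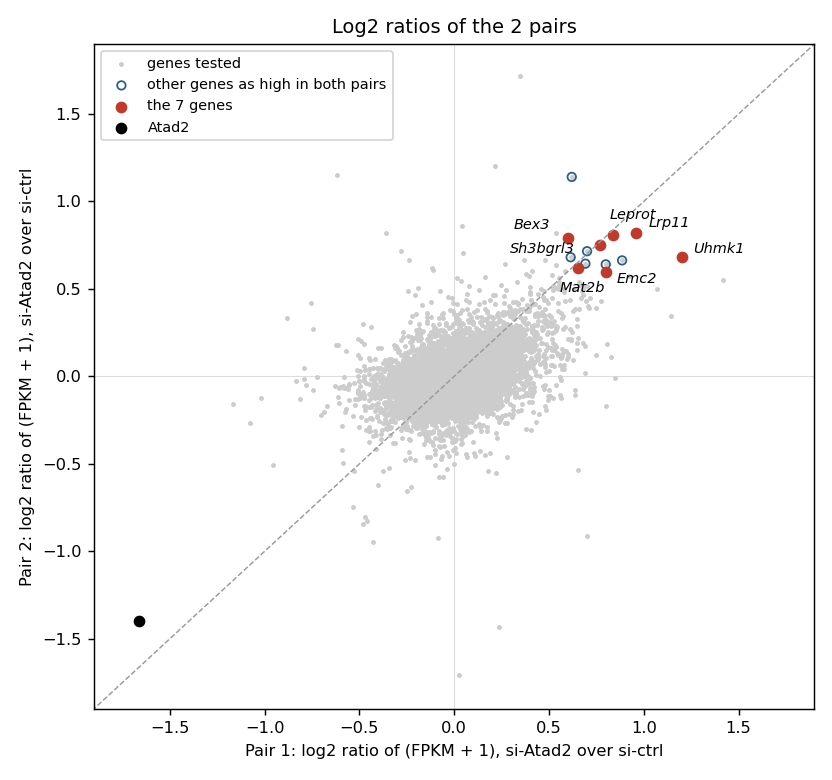
Log2 ratio of (FPKM + 1) in pair 1 (x axis) and pair 2 (y axis) for the genes tested, with the 7 genes in red, Atad2 in black, and open blue circles for the other 6 genes whose ratios both reached 0.60; 1 gene lies outside the axes and the dashed line marks equal ratios. The red points lie in the upper right, with Sh3bgrl3, Leprot and Mat2b nearest to the dashed line, and Uhmk1 lies farthest from it, to its right, at 1.20 and 0.68.

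By distance from the median ratios of the group, over the 2 pairs, the 10 most similar genes were Iars, Ddx3y, Rfc3, Uqcrfs1, Slc35a4, Rhoc, Gga2, Gfpt2, Sox3 and B4galt5. Iars, which charges the isoleucine tRNA, was the nearest, with 39.4 and 64.7 FPKM in pair 1 (log2 ratio 0.70) and 39.6 and 65.6 FPKM in pair 2 (0.72). Rfc3, a subunit of the clamp loader of DNA replication, had log2 ratios of 0.89 and 0.66. Uqcrfs1, the iron-sulphur subunit of respiratory complex III, had 0.69 and 0.64, and Ddx3y, a Y-linked RNA helicase, had 0.80 and 0.64. The least similar of the 10, B4galt5, had 0.68 and 0.52.

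The authors' tables list transcripts separately, and the 7 genes are represented by 15 rows of 200 bases or more, of which 12 had a mean of at least 1 FPKM and 2, in Leprot and Lrp11, were listed at 0 in every library. In 10 of these 12 rows, the authors' 95% intervals of si-Atad2 lay wholly above those of si-ctrl in both pairs, as in 3.94% of all 17545 rows with such length and level. Since the genes were picked for higher levels in both pairs, this is a description, and the intervals cover the estimate within a single library only. Sh3bgrl3, Emc2 and Uhmk1 have 1 row each, and Leprot and Lrp11 1 row that holds nearly all of the level. For Sh3bgrl3 the interval was 40.9 to 45.8 FPKM for si-ctrl 1 and 71.4 to 78.0 FPKM for si-Atad2 1. For Uhmk1, it was 3.08 to 3.87 FPKM for si-ctrl 1 and 8.64 to 9.93 FPKM for si-Atad2 1, and in pair 2 3.19 to 4.03 FPKM and 5.85 to 6.95 FPKM. The intervals of the 2 si-Atad2 libraries of Uhmk1 are thus apart from each other as well.

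The rows of Mat2b moved unequally. The row of 1857 bases stood at 10.7 FPKM in si-ctrl 1, 24.1 FPKM in si-Atad2 1, 10.6 FPKM in si-ctrl 2 and, in si-Atad2 2, 19.7 FPKM (log2 ratios of 1.10 and 0.84). The main row, of 2053 bases, which matches an annotated Mat2b transcript in length, went from 29.4 to 41.5 FPKM and from 31.0 to 46.1 FPKM (0.48 and 0.56). The row of 2515 bases stood at 3.56 and 3.62 FPKM in pair 1 and 3.55 and 3.998 FPKM in pair 2, with intervals that overlap in both pairs. Accordingly, the share of the shortest row in the summed level was 24.6% in si-ctrl 1 and 34.8% in si-Atad2 1, and 23.4% and 28.2% in pair 2. Fragments that fit several transcripts were divided between them by Cuffdiff, so the split between rows is less certain than the sum.

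In Bex3, the row of 938 bases held 79.7% and 81.2% of the si-ctrl level and stood at 103 and 94.5 FPKM there and at 163 and 167 FPKM in si-Atad2. The rows of 892 and 933 bases went the same way, with log2 ratios of 0.58 and 0.91, and 0.68 and 0.59. The remaining row of 261 bases went the other way, with log2 ratios of -0.67 and -0.069. It stood at 7.91 and 4.59 FPKM in pair 1 and at 5.99 and 5.67 FPKM in pair 2. Its intervals were wide (3.88 to 11.9 FPKM for si-ctrl 1 and 1.34 to 7.84 FPKM for si-Atad2 1) and overlapped in both pairs.

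**Figure D3:**
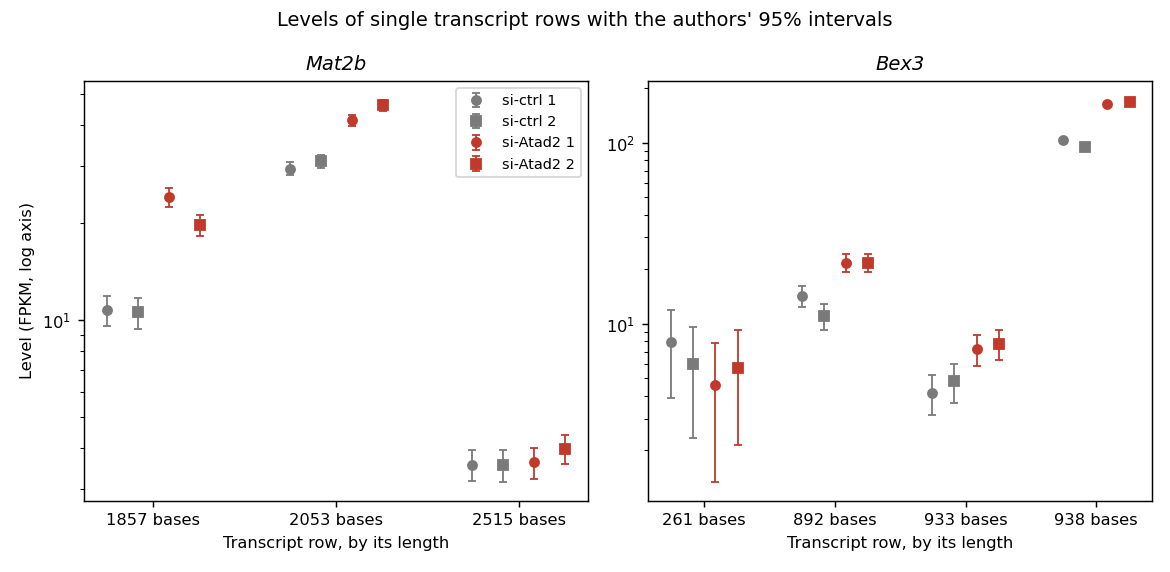
Levels of the single transcript rows of Mat2b and Bex3 in each library (FPKM, log axis), with bars for the authors' 95% intervals, circles for replicate 1 and squares for replicate 2. The Mat2b row of 2515 bases and the Bex3 row of 261 bases show overlapping intervals in both pairs, and in the other rows both si-Atad2 levels lie above both si-ctrl levels.

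The annotated transcripts of the 7 genes do not share an evident base composition. Their GC content ranged from 41.5% in Emc2, which equals that of Atad2, to 58.1% in Sh3bgrl3, with a median of 47.3% against 50.3% over all genes tested. When the trend of the ratios with GC content was removed, the log2 ratios were 0.84 and 0.74 for Sh3bgrl3, 0.82 and 0.815 for Leprot, and 0.74 and 0.62 for Emc2. The coding sequences were short in Sh3bgrl3 (279 bases), Bex3 (372 bases) and Leprot (393 bases) and longest in Lrp11 (1449 bases). Their median was 891 bases, against 1347 bases over all genes tested. The transcripts ran from 743 to 7864 bases, with a median of 1898 bases against 3077.5 bases. By mean level, Uhmk1 stood above 35.2% of all genes tested and Bex3 above 98%.

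The nearest tested gene on either side of each of the 7 was also examined, and 0 of these 14 neighbours passed the test by limma (2 with an unadjusted p under 0.05), where 2.05% of all genes passed and 16% had such an unadjusted p. These neighbours were taken up after their values could be seen. Their mean log2 ratios lay between -0.16 (Dnajc6, 4.9 kb from Leprot) and 0.25 (Ulbp1, 116.2 kb from Lrp11), with a median of -0.018. Several of these nearest tested genes lie far off, such as Wwc1, 4698.8 kb from Mat2b, and Ebag9, 1091.4 kb from Emc2. Cep85, which lies 1.1 kb from Sh3bgrl3, stood at 22.4 and 22.2 FPKM for si-ctrl and at 21.4 and 21.7 FPKM in si-Atad2. Pcmt1, 3.9 kb from Lrp11, had a mean log2 ratio of -0.089, and Hmmr, 6.2 kb from Mat2b, one of 0.022. Eif3e, the nearest tested gene on the side of Emc2 away from Atad2, 194.5 kb from Emc2, had -0.0033.

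Relatives and partners of the 7 genes, listed by what they are known to do, were then read from the test over all genes. The lists were chosen with earlier results of these data known, so the shares below are a description. Of 74 listed, 62 were tested and 4 (6.45%) passed, 3 with a rise and 1 with a fall, against 2.05% of all genes, 1.62% with a rise and 0.434% with a fall. Their median log2 ratio was -0.019 against -0.0080 over all genes. In fits without a block that left out a library, 0 of the 62 passed without si-ctrl 1 or without si-ctrl 2 (8 with an unadjusted p under 0.05 by limma in either case), and 9 passed without si-Atad2 1 or without si-Atad2 2.

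Of the relatives of Sh3bgrl3 (Sh3bgr family and glutaredoxins), 0 of 5 tested passed by limma (1 with an unadjusted p under 0.05), with Sh3bgrl at a mean log2 ratio of 0.063 and Sh3bgrl2 at -0.13. The leptin receptor gene Lepr, which Leprot is named after, was below the filter at 0.62 to 0.73 FPKM. Leprotl1, the close relative of Leprot, had a log2 ratio of -0.14 and did not pass. In the same list of 3 tested genes, 1 passed: Vps4b, an ATPase of endosomal sorting, rose from 21.5 to 29.5 FPKM and from 23.0 to 28.4 FPKM (log2 ratio 0.36, standard error 0.068, adjusted p = 0.0204 by limma). Vps4b passed in 10 of 15 alternative settings, but not without a filter on the mean level (limma, adjusted p = 0.461) or with rows of all lengths (0.143).

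Among the 13 lipoprotein receptor genes and partners read here for Lrp11, 0 passed by limma (0 with an unadjusted p under 0.05), with log2 ratios between -0.17 and 0.093. In the methionine cycle of Mat2b, 0 of 10 passed by limma (3 with an unadjusted p under 0.05). Mat2a, the catalytic partner of Mat2b, stood at 100.99 and 105 FPKM in pair 1 and at 105 and 115 FPKM in pair 2, with a mean log2 ratio of 0.089.

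In the Bex and Tceal family, 2 of 10 passed, in opposite directions. Bex1, a paralog of Bex3, rose from 142 to 175 FPKM and from 143 to 181 FPKM (log2 ratio 0.32, standard error 0.057, adjusted p = 0.0145 by limma). It passed in 10 of 16 alternative settings, but not without a filter on the mean level (limma, adjusted p = 0.445) or with rows of all lengths (0.146). Ngfr, the receptor that Bex3 binds, fell from 17.2 to 12.9 FPKM and from 16.1 to 13.3 FPKM (log2 ratio -0.33, standard error 0.072, adjusted p = 0.0425 by limma), but passed in only 5 of 15 alternatives and not with TPM (limma, adjusted p = 0.0604), the GC trend removed (0.0858) or no replicate block (0.0508). Bex2 and Bex4 had log2 ratios of -0.036 and -0.15 and did not pass.

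Of the substrates and splicing partners of Uhmk1, 0 of 8 passed by limma (2 with an unadjusted p under 0.05). Cdkn1b, an inhibitor of the cell cycle kinases, had log2 ratios of 0.59 in pair 1 and 0.15 in pair 2 (adjusted p = 0.0737 by limma), and the splicing factor Sf1 had -0.17 and -0.063. In the ER membrane complex and the insertion machinery beside it, 1 of 13 passed. Mmgt1, which encodes another subunit of the complex of Emc2, rose from 5.97 to 9.04 FPKM and from 6.54 to 8.39 FPKM (log2 ratio 0.42, standard error 0.081, adjusted p = 0.0222 by limma). Mmgt1 passed in 10 of 15 alternative settings. It did not pass without a filter on the mean level (limma, adjusted p = 0.467), with rows of all lengths (0.159) or with the GC trend removed (0.0513). The other subunits tested stayed short of the threshold, with log2 ratios of -0.025 for Emc3, 0.12 for Emc6, 0.017 for Emc7, -0.017 for Emc8 and -0.056 for Emc10. Emc1, listed at 0 FPKM in every library, and Emc4 and Emc9, without a usable row, were not tested.

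**Figure D4:**
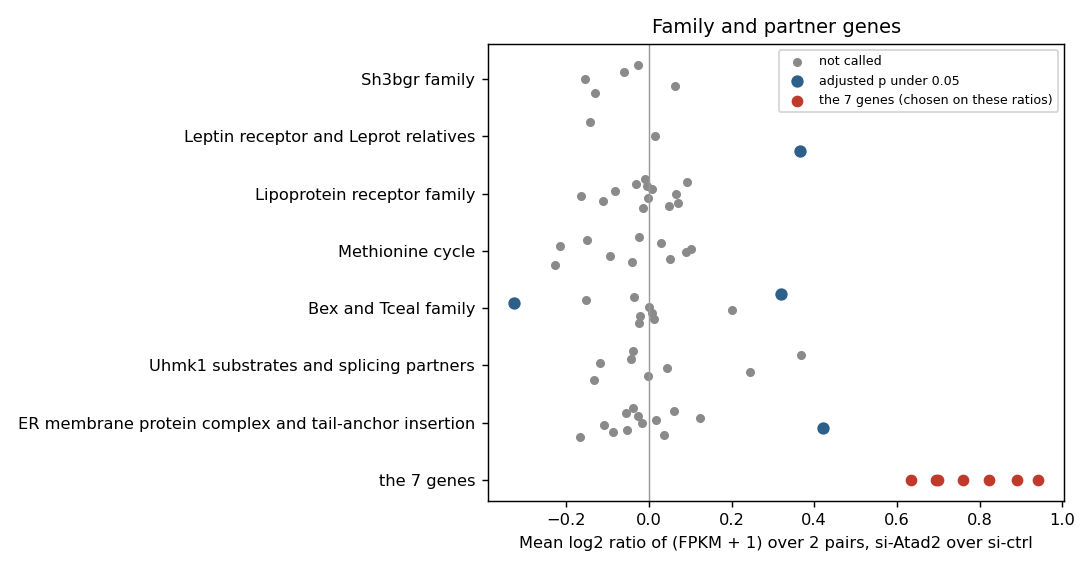
Mean log2 ratio of (FPKM + 1) over the 2 pairs for each tested gene of the partner and family lists, with the 4 genes that passed the test in blue, and for the 7 genes themselves in red, which were chosen on these ratios. The called genes lie between -0.33 (Ngfr) and 0.42 (Mmgt1), and the 7 genes between 0.63 and 0.94.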

How the data were processed

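The authors' deposited FPKM values are given for 59120 UCSC transcripts in 4 libraries (2 per condition), each transcript entered as its own gene, with a 95% interval. The submitters' processing notes name TopHat, Cuffdiff and mm9, but the loci of the tables are those of GRCm38. Versions are not given in the sources used here. The authors' deposited fold changes, p-values and q-values were not used.

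Rows were named from GENCODE vM21 by a transcript inside the locus with its length within 3 bases (14665 rows), or else by the only coding gene with at least 50% of its extent in the locus (28996 rows), and 15459 had no name. The 720 rows whose status was not OK in every library and rows under 200 bases were left out, and FPKM were summed per gene. Genes with a mean of at least 1 FPKM entered a limma fit of both log2 ratios (pseudocount 1 FPKM, eBayes with a trend, Benjamini-Hochberg over all genes, threshold 0.05). The test was checked on simulated data. Levels from different runs were set side by side for description, and tested together only in alternatives without the block.

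The members and gene lists were chosen with earlier results of these data known. Genes named are the members, Atad2, list genes, the 10 genes nearest to the median ratios of the group and any gene whose lower ratio reached the highest lower ratio among the members. Neighbours, the other genes at or near the lowest ratio of the group, and the promoter windows were chosen after values were seen. A gene taken off the lists is not reported here and enters none of their counts, while every other listed gene is counted whether named in the text or not. Get1, Camlg and Get3 were looked up under their RefSeq synonyms. The depth is not stated in the tables. Alternatives were other pseudocounts, filters, scalings, row lengths, naming, no block, crossed pairs, no trend, a GC correction and leaving out libraries. Software was R 4.3.3 with limma 3.58.1, and Python 3.11.15 with pandas 2.3.3, numpy 2.4.6 and matplotlib 3.10.9.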

Additional observations from a re-analysis of the deposited data

How the results depend on the processing

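The log2 ratios of the 7 genes were positive under every alternative run, between 0.52 (Mat2b, rows named by length alone) and 1.20 (Uhmk1, pair 1 alone), and with naming by length alone Mat2b and Bex3 were the only 2 of them with a row. The genes were picked for a rise in these same libraries, so the kept sign is a description and no support. Within an alternative a single pair could lie lower, as Uhmk1 at 0.405 in pair 2 with a pseudocount of 5 FPKM. The log2 ratio of Atad2 lay between -1.70 and -1.36 with a library or pair left out. Without a filter on the mean level its ratio of -1.53 did not pass (limma, adjusted p = 0.333), and 0 of 17722 genes passed (1753 with an unadjusted p under 0.05) and 0 of 69 partner genes (12 unadjusted). The count of changed genes was 208. It was 19 with rows of all lengths, 103 (89 higher and 14 lower) with the GC trend removed in the fit with the replicate block, 125 with crossed pairs and 31 of 3621 with rows named by length alone. It lay between 11 and 1909 with a library left out, at 11 without si-ctrl 1 or si-ctrl 2, 725 without si-Atad2 1 and 1909 without si-Atad2 2. In these fits without a block the lone library was taken to vary like the other condition. Without a replicate block over all 4 libraries 141 passed. Same-numbered libraries did not deviate together (Pearson correlation -0.032 across genes), and the pairs come from the authors' runs. The 4 partner genes became 0 with rows of all lengths (10 with an unadjusted p under 0.05 by limma) and with rows named by length alone (4 unadjusted), 2 with the GC trend removed, 1 without the eBayes trend, and 0 to 9 with a library left out. Mmgt1, Bex1 and Vps4b kept a positive and Ngfr a negative ratio throughout. Bex1 passed in 10 of 16 alternatives, Mmgt1 and Vps4b in 10 of 15 and Ngfr in 5 of 15. Over the alternatives the adjusted p by limma reached from 6.73e-08 to 0.495 for Mmgt1, 0.00015 to 0.445 for Bex1, 1.91e-06 to 0.461 for Vps4b and 4.58e-05 to 0.602 for Ngfr. The 13 genes with both ratios at or above 0.60, the lowest ratio of the group, a count chosen after seeing the data, became 21 with a pseudocount of 0.1 FPKM, 4 with 5 FPKM, 35 with TPM, 20 with rows of all lengths and 7 with rows named by length alone. With naming by length alone, 0 of the 2 members that kept a row, Mat2b and Bex3, were among the genes reaching that value. The cause of these shifts was not tested.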
